A study of Mus musculus with 4 samples.

Results

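The interferon regulatory factors (IRFs) are a family of transcription factors, and 8 of their genes, Irf1, Irf2, Irf3, Irf4, Irf5, Irf7, Irf8 and Irf9, were followed in immature granulocytes that had or lacked the microRNA miR-223. Members were the non-control probes whose gene name in the scanner files was one of these 8. They numbered 12 of the 41174 probes on the array, with 2 probes each for Irf1, Irf3, Irf8 and Irf9 and 1 each for the other 4 genes, and all 12 were well above background on all 4 arrays. The cells, neutrophil precursors still maturing in the marrow, were sorted immature granulocytes of male C57BL/6 mice, either wild type (WT, 2 samples) or miR-223 KO (2 samples). No treatment or age appears in the labels, nor whether a sample was 1 animal or a pool. miR-223 is a small RNA made mostly in myeloid cells that represses messenger RNAs carrying sites for its seed. Setting KO against WT asks how transcript levels differ in its absence.

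IRFs share a DNA-binding domain at the amino terminus and bind promoter elements built on repeats of GAAA, the interferon-stimulated response elements. Some are signal carriers: IRF3, IRF5 and IRF7 wait in the cytoplasm until kinases downstream of nucleic acid sensors or Toll-like receptors phosphorylate them, after which they switch on type I interferon genes. IRF9 is the DNA-binding part of the complex that carries the signal of the interferon receptor to the nucleus, and IRF1 and IRF2 act on many of the same sites, IRF1 mostly as an activator and IRF2 often as its antagonist. IRF8 and IRF4 are factors of blood cell fate: IRF8 steers myeloid progenitors to monocytes and dendritic cells and away from granulocytes, while IRF4 acts mostly in lymphocytes, plasma cells and dendritic cells.

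The KO cells lack the microRNA shown here with its seed (bases 2 to 8, the part that pairs with targets) in capitals, as listed by RefSeq on GRCm38.p6.
mmu-miR-223-3p: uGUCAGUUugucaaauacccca
None of the 12 Irf probes contained a match to this seed in the sense of the transcript, either as the 8mer AACTGACA or as the shorter 6mer ACTGAC (0 of 12 for both). Over all probes, 0.136% held the 8mer and 1.41% the 6mer. The search covered only the 60 bases of each probe.

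For 3 Irf genes a probe crossed an intron, since its mm9 coordinates spanned more than its 60 bases, so that it read spliced RNA. These probes are shown because the values below are signals at exactly these sequences. The Irf1 probe lay at chr11:53587446-53587591 (plus strand), the Irf7 probe at chr7:148450664-148451014 (minus strand) and the Irf9 probe at chr14:56224980-56225190 (plus strand).
Irf1: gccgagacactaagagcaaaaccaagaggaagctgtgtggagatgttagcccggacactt
Irf7: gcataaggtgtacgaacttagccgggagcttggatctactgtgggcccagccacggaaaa
Irf9: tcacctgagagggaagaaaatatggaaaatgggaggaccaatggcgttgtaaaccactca

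Since several Irf genes differed between the genotypes in the same direction, their RefSeq promoters (GRCm38.p6, windows of 300 bases around each start, 11 windows for the 8 genes) were searched on both strands for 3 elements. These were the core of the interferon-stimulated response element (GAAA, any 2 bases, GAAA), the STAT-binding element TTCNNNGAA (GAS) and the composite ETS-IRF element (GGAA, any 2 bases, GAAA), bound by IRF4 or IRF8 together with PU.1. The GAS letters stood in 3 of the 11 windows, those of Irf1, Irf2 and Irf8, against 8.3% of all 32851 windows. The interferon-stimulated core and the composite each stood in 1 of the 11, that of Irf2, against 3.44% and 2.72% of all windows. The stretches that hold them are printed 5′ to 3′ on the plus strand with the matched letters in capitals. They are chr11:53769884-53769973 for Irf1, chr8:46739495-46739570 for Irf2 and chr8:120736147-120736254 for Irf8.
Irf1: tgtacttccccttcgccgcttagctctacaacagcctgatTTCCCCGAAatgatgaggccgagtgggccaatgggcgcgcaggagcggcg
Irf2: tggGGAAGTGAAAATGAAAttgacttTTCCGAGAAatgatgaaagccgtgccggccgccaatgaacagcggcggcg
Irf8: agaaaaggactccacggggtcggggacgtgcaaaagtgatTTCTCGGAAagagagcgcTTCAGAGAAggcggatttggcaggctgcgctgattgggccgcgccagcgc
In the Irf1 stretch the element began 90 bases upstream of the start. In Irf8 a pair of GAS elements began 171 and 153 bases upstream. In Irf2 the composite (247 bases upstream) overlapped the response element core (241 bases upstream), and a GAS element began 224 bases upstream. Of the genes that stood higher in KO, described below, Irf8 had a match and Irf5, Irf7 and Irf9 had none. A match is a description of the letters in these windows.

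Array signals are given as the processed signal divided by the 75th percentile of the same array (scaled signal), and differences as log2 of KO over WT with the standard error (SE) from limma, n = 2 arrays per genotype. Because probes differ in how well they bind, the level of one probe was not set against that of another. All 4 arrays lay on 1 slide, with the genotypes in alternating positions. Between 59.6% and 62.9% of spots were well above background on each array, and 0 were saturated. The scaling value, the 75th percentile, was 310 to 314 in WT and 361 to 422 in KO. The number of arrays limits the precision. As the labels do not tie the replicates to different mice, the spread behind each p-value is that of these samples alone and may be only technical. With 2 arrays against 2, the smallest two-sided p an exact permutation test can give is 0.333, so no such test was used. Markers of neutrophil precursors were present as the label asks: all 14 of the 16 fixed markers that are on the array were measured, with summed scaled signals of 5945 and 6497 in WT and 6275 and 5575 in KO. At an adjusted p under 0.05 (limma) 0 of the 14 passed, but so did 0% of all probes, so this does not show equal levels. At an unadjusted p under 0.05, 3 of the 14 were higher in KO and 0 lower, where 11.9% of all genes were higher. They are named below. No probe carries the name of miR-223, so the genotype labels were not checked by the deleted gene.

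Of the 8 Irf genes, 4 stood higher in KO by 0.47 to 0.86 on the log2 scale, Irf7, Irf5, Irf9 and Irf8, and the other 4 differed by -0.06 to 0.21. On each of the 6 probes of the first 4 genes both KO arrays exceeded both WT arrays. At an adjusted p under 0.05 (limma, adjusted over all 25749 probes tested) 0 of the 12 probes passed, as did 0% of all probes. At an unadjusted p under 0.05 6 of the 12 were higher in KO and 0 lower, where 11.1% of all probes were higher. With groups that did not overlap, 8 of the 12 were higher in KO, where 26.3% of all probes were. In the other direction 1 was lower, the brighter Irf3 probe, where 8439 of all 25749 probes were. An intensity trend in limma's prior variance, which lets the assumed spread depend on signal, called 5 of the 12 higher, against 5.03% of all probes. Those 5 were the probes of Irf7 and Irf5, both of Irf9 and the dimmer one of Irf8.

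**Figure D1:**
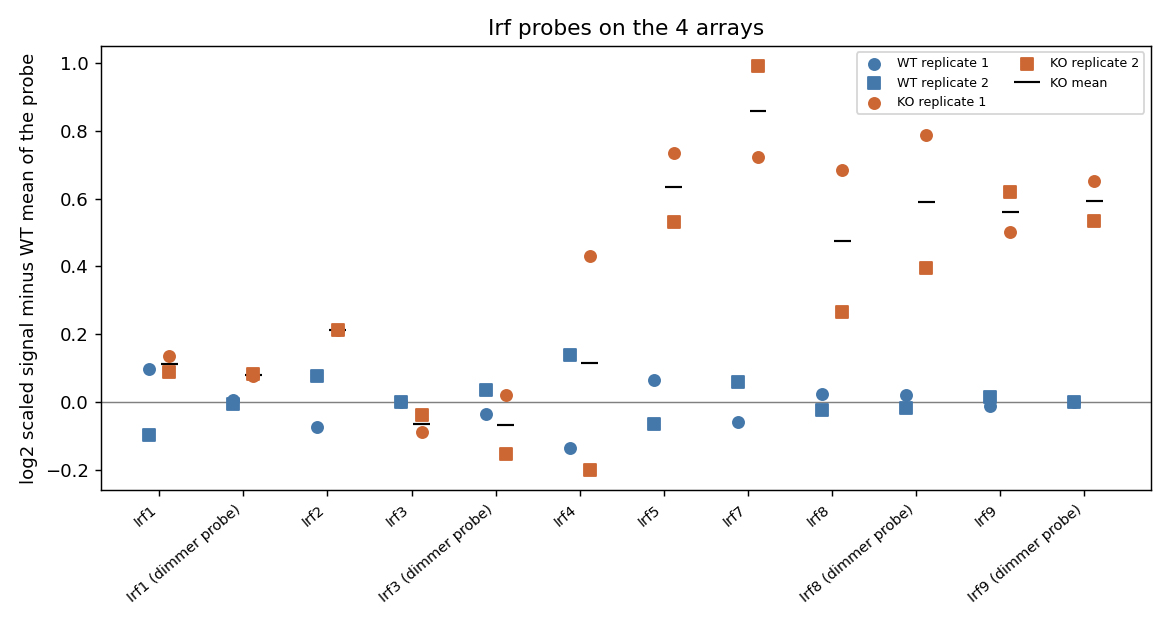
Scaled log2 signal of each of the 12 Irf probes on the 4 arrays, with the WT mean of the probe subtracted. Circles are replicate 1, squares replicate 2, blue WT and orange KO, and the black bar is the KO mean. Both KO arrays lie above both WT arrays on every probe of Irf5, Irf7, Irf8 and Irf9. They also do so, by smaller gaps, on the Irf2 probe and the dimmer Irf1 probe. The arrays of the genotypes mix for Irf4, the brighter Irf1 probe and the dimmer Irf3 probe.

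Among the factors that carry signals from sensors, Irf7 differed most. IRF7 is itself induced by interferon and amplifies the type I interferon response. Its only probe, at mm9 chr7:148450664-148451014, had scaled signals of 0.697 and 0.757 on the WT arrays, then 1.2 and 1.44 in KO. The lower KO array was thus 0.66 above the higher WT array on the log2 scale. The difference was 0.86 ± 0.13 (SE), or 1.81-fold, with a 95% interval of 0.49 to 1.22 and an adjusted p of 0.0952. Over all probes 1.98% had a larger difference in that direction. With the intensity trend its adjusted p was 0.0130.

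Irf5 encodes a factor activated through MyD88 that drives inflammatory cytokine genes and is best known from monocytes and macrophages. Its probe (chr6:29486901-29486960) read 1.25 and 1.15 in WT against 1.99 and 1.73 in KO. The groups did not overlap, and the KO arrays differed from each other by more than the WT arrays did. The difference was 0.63 ± 0.12 (SE), 1.55-fold, with a 95% interval of 0.31 to 0.96 and an adjusted p of 0.103 (0.0200 with the intensity trend).

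Irf3, the partner of IRF7 that is present before any stimulus and needs no new synthesis, differed little between the genotypes. The brighter probe (chr7:52257673-52257732) had scaled signals of 15.9 and 15.8 in WT and 14.9 and 15.4 in KO, so that both KO arrays were slightly lower, for a difference of -0.06 ± 0.08 (SE) with a 95% interval of -0.29 to 0.17. The dimmer probe (chr7:52253377-52253436), annotated to an alternatively spliced transcript, read 0.879 and 0.925 in WT and 0.914 and 0.810 in KO, a difference of -0.07 ± 0.10. The interval of the brighter probe does not reach the differences of Irf5, Irf7 or Irf9. The sign of its difference is not settled, since it was 0.06 with normexp background correction and 0.02 on the authors' deposited values.

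As Irf3 had the smallest difference of the family, the other genes were set against it array by array, a comparison chosen after the values were seen and one that does not depend on the scaling between arrays. Relative to Irf3, Irf7 differed between the genotypes by 0.92, and over the 4 pairs of a KO and a WT array the value ran from 0.75 to 1.09. For Irf5 it was 0.70 (0.51 to 0.89), for Irf9 0.62 (0.58 to 0.67) and for Irf8 0.54 (0.28 to 0.80). Irf2 gave 0.28 (0.17 to 0.38) and Irf1 0.17 (0.03 to 0.32), whereas Irf4 ran from -0.30 to 0.66. The brighter Irf3 probe was itself slightly lower in KO (-0.06), which raises every other value. The 4 pairs also reuse the same 4 arrays. The ranges therefore add no support for a difference of Irf1 or Irf2, whose own intervals include 0. These ratios show unequal change within an array, not which gene of a pair changed.

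**Figure D2:**
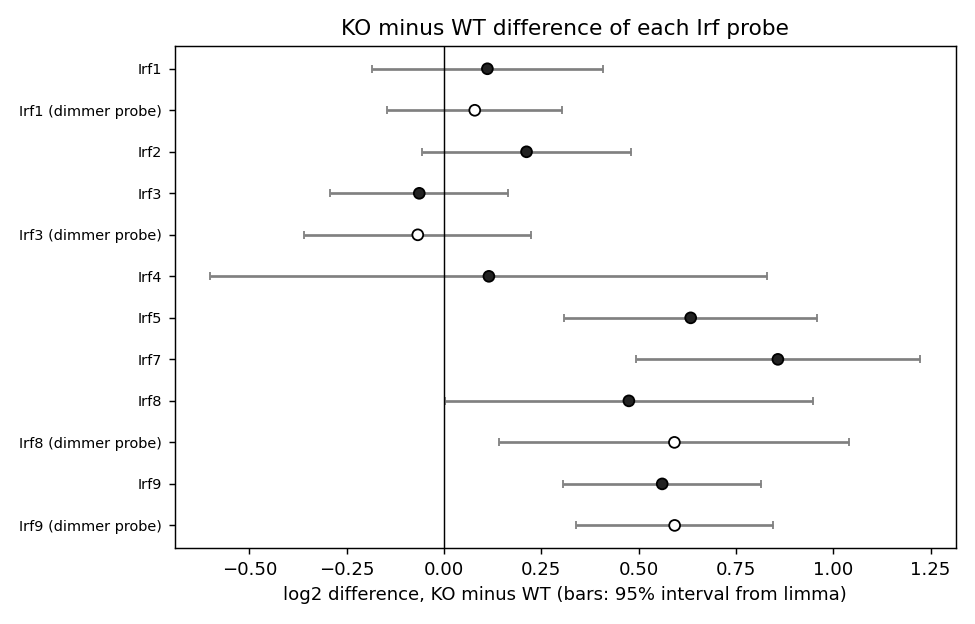
Log2 difference (KO minus WT) of each Irf probe with its 95% interval from limma, n = 2 arrays per genotype. Filled points are the brightest probe of a gene and open points the dimmer one. The intervals of Irf5, Irf7, Irf8 and Irf9 lie above 0, before any adjustment for the number of probes, and those of the other 4 genes include 0.

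Irf9, the DNA-binding part of the complex that answers the interferon receptor, was higher on both of its probes. The brighter (chr14:56228256-56228315) had scaled signals of 2.13 and 2.17 in WT against 3.04 and 3.30 in KO. The dimmer, which crosses an intron and is printed above, read 0.196 on both WT arrays and 0.307 and 0.283 in KO. The groups were apart on both probes, and the WT arrays agreed closely. The differences were 0.56 ± 0.09 (SE, adjusted p = 0.0954) and 0.59 ± 0.09 (adjusted p = 0.0952), and 1.47-fold and 1.51-fold. With the intensity trend the adjusted p was 0.0146 and 0.0349. The probes parted with normexp background correction, which gave 0.52 for the brighter and 0.27 (adjusted p = 0.0697) for the dimmer.

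Irf1, an early target of interferon signalling that turns on antigen presentation and antiviral genes, had no difference beyond the spread of the arrays that could be detected. Its brighter probe (chr11:53590715-53590774) read 14.9 and 13 in WT and 15.3 and 14.8 in KO, with groups that overlapped, for a difference of 0.11 ± 0.11 (SE) with a 95% interval of -0.19 to 0.41. Its dimmer probe, across an intron, read 0.481 and 0.478 in WT against 0.505 and 0.507 in KO. There the groups were apart, but by only 0.07 on the log2 scale. The difference was 0.08 ± 0.08 (adjusted p = 0.581).

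Irf2, which binds the same sites as IRF1, had a single probe (chr8:47932486-47932545) at 1.26 and 1.40 in WT and 1.54 and 1.54 in KO. Both KO arrays were higher. The difference of 0.21 ± 0.10 (SE) had a 95% interval of -0.06 to 0.48 and an adjusted p of 0.271, and 20.5% of all probes had a larger one.

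Irf8 was higher in KO on both probes, with KO arrays that were far apart. The brighter probe (chr8:123280324-123280383) read 12.7 and 12.3 in WT against 20.1 and 15.01 in KO. The dimmer (chr8:123279889-123279948) read 1.81 and 1.76 in WT and 3.09 and 2.35 in KO. On both, KO replicate 1 was the highest array and KO replicate 2 stood between it and the WT arrays. The differences were 0.47 ± 0.17 (SE, adjusted p = 0.202) and 0.59 ± 0.16 (adjusted p = 0.146), or 1.39-fold and 1.51-fold. Without KO replicate 1 the value of the brighter probe was 0.27, and without KO replicate 2 it was 0.68. With the intensity trend the dimmer probe had an adjusted p of 0.0425 and the brighter one of 0.0746.

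Irf4 was dim, with processed signals of 34.9 and 41.7 in WT and 59.5 and 44.8 in KO before scaling. After scaling (chr13:30858459-30858518) the values were 0.111 and 0.134 in WT and 0.165 and 0.106 in KO. KO replicate 1 was the highest array and KO replicate 2 the lowest. The difference of 0.12 ± 0.26 (SE) had a 95% interval of -0.60 to 0.83, and its sign turned when single arrays were left out, from -0.20 without KO replicate 1 to 0.43 without KO replicate 2.

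**Figure D3:**
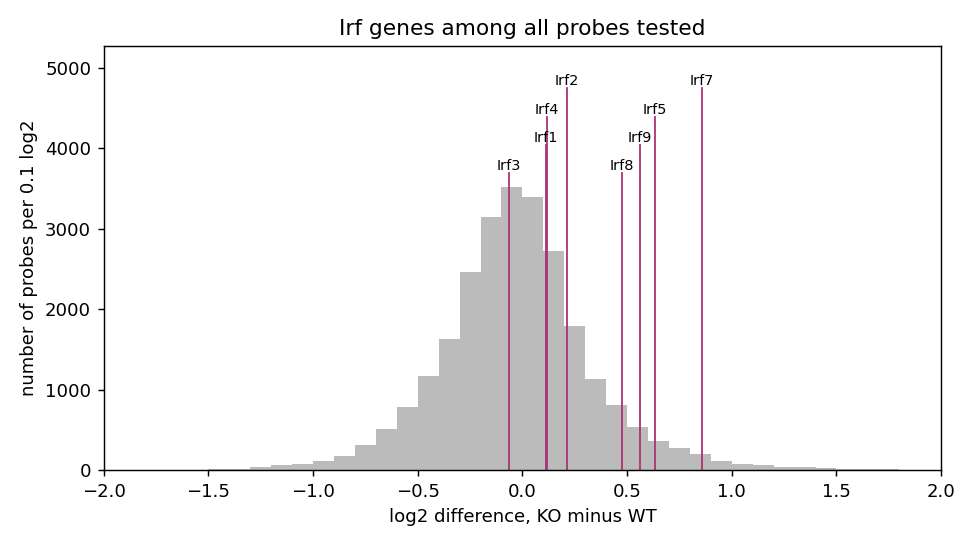
Number of probes by log2 difference (KO minus WT, bins of 0.1) for all 25749 probes tested, with the brightest probe of each Irf gene marked. Irf3, Irf1, Irf4 and Irf2 lie in the bulk of the distribution, and Irf8, Irf9, Irf5 and Irf7 in its right flank, where 1.98% of probes lie beyond Irf7.

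The genes that act around the IRFs were then described from lists, one probe (the brightest) standing for each gene. Of all 16978 genes, 11.9% were higher and 12.1% lower in KO at an unadjusted p under 0.05, and 28% had both KO arrays above both WT arrays. With the intensity trend 5.88% were called higher and 4.56% lower. Without it 0 genes in any list passed at an adjusted p under 0.05.

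Upstream of the IRFs, 28 sensors, adaptors and kinases were listed and 27 measured. Their median difference was 0.22 (all genes -0.02). At an unadjusted p under 0.05, 9 were higher in KO and 0 lower, and with the intensity trend 4 were called higher. Among the 9, Dhx58 and Ifih1 are also on the interferon-induced list below and are counted there again. Tlr8, a receptor for RNA in endosomes and 1 of the 9, was well above background on the KO arrays only, so no difference is given for it. The 4 called with the trend were Slc15a4 (0.65 ± 0.13 SE), a lysosomal transporter needed for signalling from endosomal receptors, the adaptor Sting1 of the DNA-sensing pathway (0.65 ± 0.14), Dhx58 (0.47 ± 0.11), a helicase of the RIG-I family, and Tank (0.44 ± 0.13), which binds TRAF proteins and TBK1. Tbk1, the kinase that phosphorylates IRF3 and IRF7, had a difference of -0.19, and Traf3, which recruits it, one of -0.15, neither at an unadjusted p under 0.05.

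Most interferon genes themselves were dim or not measured. Of 21 listed, 13 were on the array and 6 were measured, while Ifnb1, Ifna2, Ifna4, Ifna5, Ifna12, Ifne and Ifnk were not well above background on 2 arrays. The summed scaled signal of the 6 was 1.28 and 1.13 on the WT arrays and 1.24 and 0.965 on the KO arrays, so the groups overlapped. The median difference was -0.02, but -0.45 without KO replicate 1 and 0.38 without KO replicate 2, so the KO arrays disagreed. No member had an unadjusted p under 0.05, the smallest belonging to Ifna9 (-0.31 ± 0.14 SE). Ifnz followed with 0.38 ± 0.20, Ifna13 with -0.16 ± 0.24 and Ifnab with -0.03 ± 0.14. Interferon alpha genes are close copies of each other, and a probe may read several.

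At the receptors, 16 genes were measured with a median difference of 0.13. There were 3 higher and 0 lower at an unadjusted p under 0.05, and the same number with the intensity trend. They were Socs3 (1.03 ± 0.13 SE) and Usp18 (1.054 ± 0.14), feedback inhibitors of cytokine and interferon signalling, and Stat3 (0.45 ± 0.12). Usp18 is also on the interferon-induced list below and is counted there again. Ifngr2, a chain of the interferon gamma receptor, had a difference of 0.22 ± 0.08.

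Downstream, 48 of 51 interferon-induced genes were measured, and their median difference was 0.49. Of these, 33 were higher and 1 lower at an unadjusted p under 0.05, and 41 had both KO arrays above both WT arrays. With the intensity trend 24 were called higher and 0 lower. The smallest p-values belonged to Oas1a, a sensor of double-stranded RNA (1.2 ± 0.10 SE), and Isg20, which degrades RNA (0.88 ± 0.08). Next came Parp14 (0.81 ± 0.08) and Isg15, whose product is attached to other proteins like ubiquitin (1.19 ± 0.13). The 1 lower gene, named for that reason, was Ifit2 (-0.32). Irf9 (0.56) lay near the median of this list and Irf7 (0.86) above it. The same arrays enter both, and the list was chosen with these results known.

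Partners and regulators of IRF proteins were mixed. Among 26 measured, 13 were higher, the median was 0.01, and 5 were higher and 0 lower at an unadjusted p under 0.05. The AP-1 subunits Jun (1.23 ± 0.10 SE) and Junb (0.71 ± 0.09) led, followed by Irf2bpl (0.58 ± 0.10), a member of the IRF2-binding protein family, and Trim21 (0.34 ± 0.08), a ubiquitin ligase that acts on IRFs and is interferon-induced itself. Irf2bpl was dim, with log2 scaled signals of -4.857 and -4.775 in WT and -4.148 and -4.318 in KO. With the intensity trend in limma 3 of the 26 were called higher and 0 lower. Irf2bpl (adjusted p = 0.189) and Trim21 (adjusted p = 0.0510) were not among them. Spi1, which encodes PU.1, the ETS partner of IRF4 and IRF8, had a difference of -0.08.

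Genes of the monocyte and dendritic programme that depends on IRF8 had a median difference of 0.35 over 23 measured. At an unadjusted p under 0.05, 10 were higher and 1 lower, and with the intensity trend 8 and 1. Ctsc (0.76 ± 0.10 SE) and Ctss (0.83 ± 0.11), lysosomal proteases, led with Klf4 (0.87 ± 0.14), a factor of monocyte identity, and Naaa (0.47 ± 0.08), a lysosomal amidase. The lower gene was Bcl2 (-0.57), which encodes an inhibitor of apoptosis. Klf4, Csf1r, Ly86 and Cx3cr1 are also on the list of monocyte and macrophage markers below. Cd74, Batf3 and Zbtb46 are also conventional dendritic cell markers, and Blnk is a B cell marker. These lists therefore partly count the same probes and are not separate results.

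**Figure D4:**
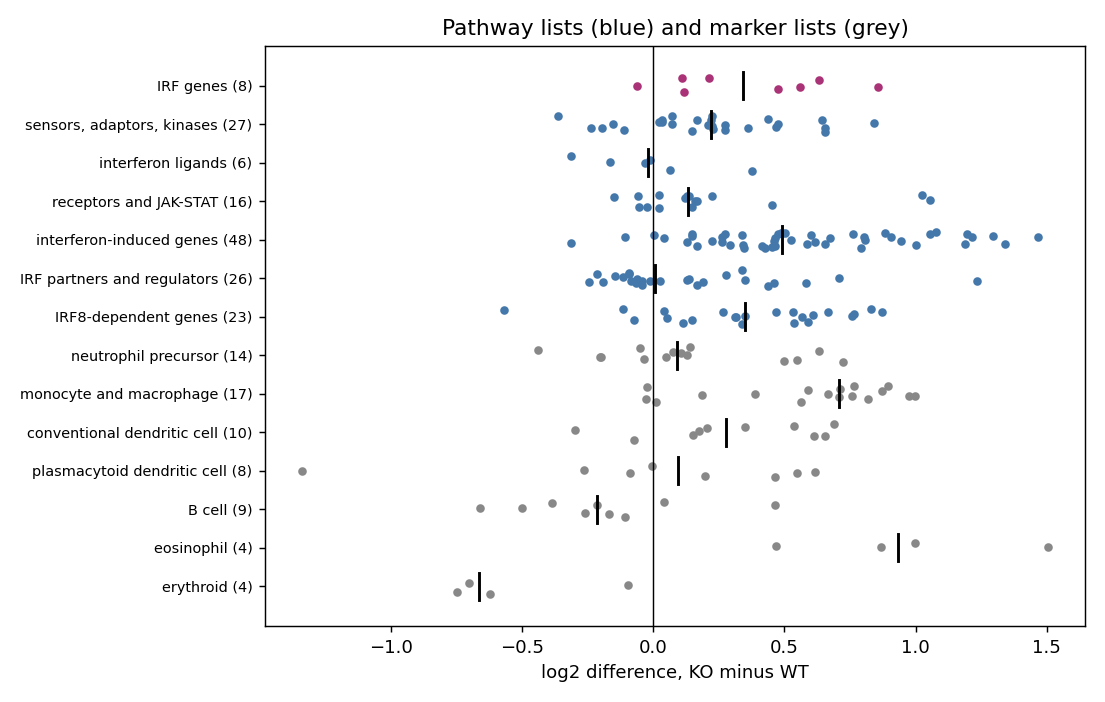
Log2 difference (KO minus WT) of the 8 Irf genes (purple), of the genes in each pathway list (blue) and of markers of cell types (grey), with the number measured in brackets and the median as a black bar. Interferon-induced genes, IRF8-dependent genes and monocyte markers lie mostly to the right of 0, and interferon ligands lie on both sides of it.

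Irf5, Irf7 and Irf8 are also expressed by cells other than neutrophil precursors, so markers of such cells are given beside them. In sorted bulk RNA, more cells of a type and more RNA per cell cannot be told apart. Of 17 monocyte and macrophage markers, all measured, 12 were higher and 0 lower at an unadjusted p under 0.05 (median 0.71). Among them were Ccr2 (0.82 ± 0.09 SE), Fn1 (0.89 ± 0.10), F13a1 (0.71 ± 0.09) and Adgre1 (0.97 ± 0.12). Of the 17, 13 had both KO arrays above both WT arrays and 0 had both below. The summed scaled signal of the list compares arrays and is weighted to bright probes, here above all Lyz1. The sums overlapped between the groups (633 and 404 in WT, 520 and 623 in KO). Lyz1 had a difference of 0.01 ± 0.38. Its log2 scaled signals ranked the arrays as the sums did: WT replicate 1 (8.93), KO replicate 2 (8.71), KO replicate 1 (8.25), WT replicate 2 (8.01). The overlap of the sums therefore does not show that the other markers overlapped. C1qa, a marker of mature macrophages, had a difference of -0.03. The part of monocytes in the Irf5, Irf7 and Irf8 values was not tested.

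Markers of conventional dendritic cells had a median of 0.28 over 10 measured (0.09 without KO replicate 1 and 0.69 without KO replicate 2), with 3 higher and 0 lower at an unadjusted p under 0.05. These were the MHC class II genes H2-Ab1, H2-Aa and H2-Eb1 (0.61 to 0.69). Cd74 had a difference of 0.53 ± 0.21 (SE). Of the 10, 8 had a difference above 0, where 8076 of all 16978 genes did. Those below 0 were Xcr1 (-0.30 ± 0.20) and Zbtb46 (-0.07 ± 0.25), neither at an unadjusted p under 0.05. The summed scaled signal of the list was 49.7 and 58.0 on the WT arrays and 90.9 and 71.9 on the KO arrays. This sum is weighted to the bright MHC class II genes and Cd74.

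The array that was highest for Irf8 and Irf4, KO replicate 1, was also highest for 7 of 8 markers of plasmacytoid dendritic cells and 5 of 9 of B cells, cells that express these factors. The other 4 B cell markers were highest on a WT array. Of the lists above, 9 of 10 conventional dendritic and 13 of 17 monocyte and macrophage markers were also highest on KO replicate 1. So were 4 of 4 eosinophil and 3 of 14 neutrophil precursor markers. How often that array was the highest over all genes was not counted, so these counts have no background to be read against. The plasmacytoid markers summed to 17.7 on that array, to 9.43 on KO replicate 2, and to 10.55 and 9.28 in WT. For the B cell markers the sums were 11.8, 8.76, 8.26 and 8.73 in the same order. Both sums are weighted to bright probes, Bst2 and Ly6d in the first and Cd79b and Blnk in the second. They do not stand for all markers of a cell type. Plasmacytoid markers had a median difference of 0.10, but -0.74 without KO replicate 1 and 0.89 without KO replicate 2. At an unadjusted p under 0.05, 2 were higher (Bst2, also on the interferon-induced list, and Tcf4) and 0 lower, while Siglech, their defining marker, had -1.34 ± 1.23 (SE), highest on WT replicate 1, and Lag3 0.46 ± 0.45. B cell markers had a median of -0.22, but -0.46 without KO replicate 1 and 0.27 without KO replicate 2, with 1 higher (Cd79b, 0.46) and 2 lower (Igll1, -0.66, and Vpreb1, -0.39), and Cd79a stood at -0.50 ± 0.33. Ebf1 was not well above background on 2 arrays. The part of these cells in the spread of Irf8 and Irf4 between the KO arrays was not tested.

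The remaining marker lists were small. All 4 measured eosinophil markers, Siglecf (0.87), Epx (0.998), Prg2 (1.51) and Ear1 (0.47), were higher at an unadjusted p under 0.05. Of 4 measured erythroid markers, 3 were lower (Slc4a1, -0.62, Epor, -0.75, and Ahsp, -0.70) and Tfrc had -0.10, while Klf1 was not well above background on 2 arrays. Plasma cell markers, of interest for Irf4, had 1 of 5 higher (Prdm1, 0.41 ± 0.12 SE) and 0 lower. Their sums, again weighted to bright probes, were 43.8 and 43.2 in WT and 40.2 and 45.6 in KO. Xbp1 (0.22), Sdc1 (0.33) and Tnfrsf17 (0.25) had no unadjusted p under 0.05. Of 7 measured T and NK cell markers, 1 was lower, Cd3d (-1.43 ± 0.08), with Cd3g at 0.37, Cd3e at -0.22 and Nkg7 at 0.09. Of 5 basophil and mast cell markers, 1 was lower (Prss34, -0.92), with Fcer1a at -0.63, Mcpt8 at -0.15 and Ms4a2 at 0.12. Among neutrophil precursor markers 3 were higher and 0 lower, all 3 of them azurophil granule proteases: Prtn3 (0.72 ± 0.10 SE), Ctsg (0.63 ± 0.09) and Elane (0.50 ± 0.10). S100a9 had a difference of -0.20.

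For Irf7 and Irf5, the genes of the family with the greatest differences, the most alike patterns over the 4 arrays were sought among 12124 other genes that were well above background on every array and whose names are not those of clones, accessions or predicted genes. Likeness was the root mean square distance between log2 values centred on each gene's mean. Nearest to Irf7 were Mvp (distance 0.0191), Tlr6 (0.0335), Layn (0.0441), Qpct (0.0506) and Plagl1 (0.0507), and 55 genes lay within 0.1. Nearest to Irf5 were Mpeg1 (0.0226), Dhx33 (0.0228), Glis2 (0.0232), Prkce (0.0234) and Slc15a4 (0.0255), and 267 genes lay within 0.1. With 4 arrays such likeness is shared by many genes.

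**Figure D5:**
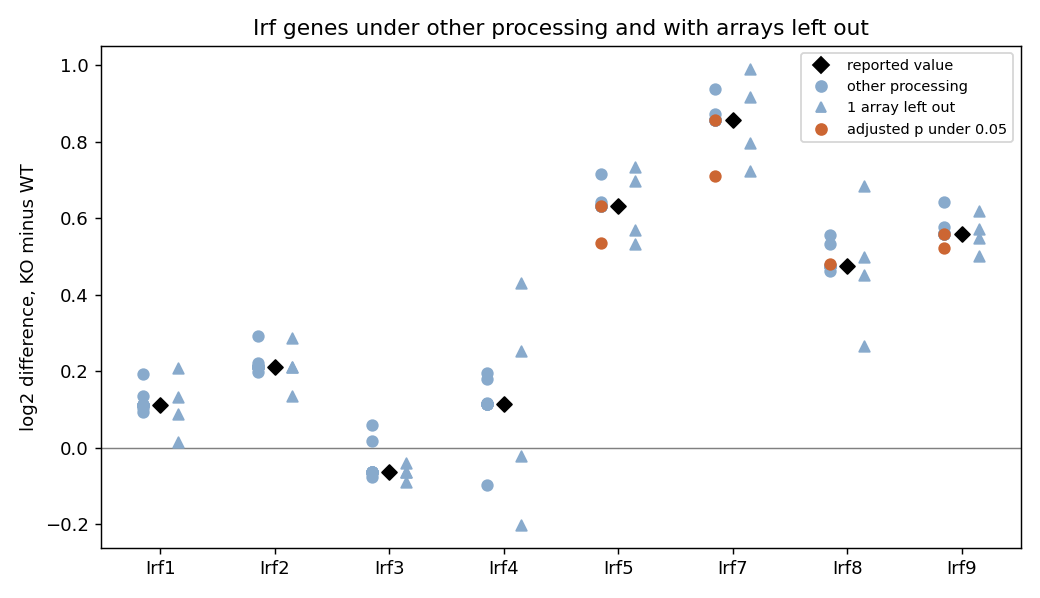
Log2 difference (KO minus WT) of the brightest probe of each Irf gene as reported (diamonds), under other processing (circles) and with 1 array left out (triangles). Orange marks an adjusted p under 0.05, and a circle at the height of the diamond has the same value. Irf5, Irf7, Irf8 and Irf9 stayed above 0 in all 15 alternatives, whereas Irf3 and Irf4 crossed 0.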

How the data were processed

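Per the file headers, Agilent Feature Extraction 10.5.1.1 produced the spot values. The authors' deposited intensity of a spot is the processed signal, detrended and with background removed, with no step that makes arrays comparable. The deposited value table was taken as log2, because it followed log2 of these signals (r of 0.9999 or more over 41174 probes). Its columns all have a median of 4.68, and how it was centred stays unknown.

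Log2 processed signals had each array's 75th percentile over non-control spots subtracted, and spots of a probe were averaged. A probe was kept if 2 or more of the 4 arrays had it well above background (25749 probes), and 16978 genes were represented by their brightest probe. The test was that of limma 3.58.1 under R 4.3.3 (lmFit, eBayes, Benjamini-Hochberg over all probes). Probe coordinates are mm9. List genes were matched after names were updated through RefSeq accessions of GRCm38.p6 (26933 probes), current symbols (5570) or synonyms (894), while 7777 probes kept the file's name. No column of the files was unmapped.

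Members and lists were chosen with earlier results of these data known. Named genes were all members, up to 4 genes per list with the smallest p, and the 5 nearest patterns of the 2 most different members. Tank, Tbk1, Traf3, Ifit2, Spi1, Bcl2, Lyz1, C1qa, Xcr1, Zbtb46, Ly6d and Blnk were added after their values were seen. Ifih1, Csf1r, Ly86, Cx3cr1 and Batf3 are named only because they stand on several lists. The fit was tested on simulated arrays. Alternatives changed background correction, scaling, starting values, filter, variance prior, probe rule, block and arrays.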

Additional observations from a re-analysis of the deposited data

How the results depend on the processing

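Irf1, Irf2, Irf5, Irf7, Irf8 and Irf9 kept their direction in all 15 alternatives run, with ranges of 0.01 to 0.21, 0.14 to 0.29, 0.53 to 0.74, 0.71 to 0.99, 0.27 to 0.68 and 0.50 to 0.64. With an intensity trend Irf5 (0.63), Irf7 (0.86) and Irf9 (0.56) had an adjusted p under 0.05, so that 3 of the 8 genes were called, with 41 genes of the pathway lists and 2480 of all probes (1295 higher, 1185 lower). With normexp background correction 4 were called, Irf5 (0.54), Irf7 (0.71), Irf8 (0.48, adjusted p = 0.0441) and Irf9 (0.52), with 44 list genes and 3545 probes (1372 higher, 2173 lower), and Irf3 (0.061) and Irf4 (-0.10) changed sign. Under the other alternatives 0 Irf genes were called. The authors' deposited values gave 267 probes and 7 list genes, the filter on all 4 arrays 128 and 3, and quantile normalization 5 probes. On the deposited values Irf3 was at 0.018 and its dimmer probe at 0.014. With single arrays left out, Irf4 ran from -0.20 to 0.43 and the dimmer Irf3 probe from -0.15 to 0.020. The adjusted p of Irf7 over the alternatives ran from 0.00737 to 0.295. The cause of these changes was not tested. The deviations of WT replicate 1 and KO replicate 1 from their group means had r = 0.0267 across probes. This value cannot tell whether same-numbered samples were prepared together, and the labels do not say. A replicate block left Irf7 at 0.86 and called 0 probes. All Irf probes were well above background on 4 arrays, whereas Igll1, Cd3g, Fcer1a and Prdm1 were so on 3.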
